A study of Mus musculus with 21 samples.

Results

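The subunits of oxidative phosphorylation are encoded by 2 genomes, and their transcripts were followed here across the mesoderm populations of day 4 mouse embryoid bodies. Members were the protein-coding genes whose symbols fit the patterns for mitochondrial-encoded subunits (mt-Nd, mt-Co, mt-Atp and mt-Cytb) and for nuclear-encoded subunits (Ndufa, b, c, s and v, Sdha to Sdhd, Uqcr, Cox4 to Cox8 with a letter, and Atp5). There were 96 members of 55487 gene IDs, 13 mitochondrial-encoded and 83 nuclear-encoded. The nuclear members held 35 genes of complex I, 4 of complex II, 8 of complex III, 18 of complex IV (with Ndufa4 and Ndufa4l2) and 18 of complex V. The mitochondrial members held 7, 1, 3 and 2 genes of complexes I, III, IV and V. Another 12 symbols fitted the patterns but belonged to no protein-coding gene and were left out.

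RNA was sequenced from embryoid bodies grown from mouse embryonic stem cells and sorted on the receptors FLK1 and PDGFRalpha, with 3 libraries in each of 7 groups. Cells with FLK1 but no PDGFRalpha are called SP, and cells with both receptors are called DP. A line that reports T by GFP and Etv2 by tdTomato gave SP Etv2 positive, DP Etv2 positive, SP Etv2 negative and DP Etv2 negative cells, split by tdTomato. A second set held SP cells of the iETV2 line, in which doxycycline at 2 µg per ml from day 2.5 switched on Etv2, and SP and DP cells of A2lox.Cre, the wildtype line (WT), for which the labels list no doxycycline. Each line was a single line, so line and doxycycline cannot be told apart between iETV2 SP and WT SP. All lines had been kept on mouse embryonic fibroblast feeders before differentiation. The labels do not say whether replicates were separate cultures, so p-values measure the spread between these libraries, which may be technical.

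The respiratory chain passes electrons from NADH and succinate to oxygen through complexes I to IV and pumps protons across the inner mitochondrial membrane, and complex V, the ATP synthase, uses that gradient to make ATP. Mitochondrial DNA is transcribed as long transcripts by its own RNA polymerase and encodes core subunits of complexes I, III, IV and V, whereas the other subunits, and the whole of complex II, come from nuclear genes whose products are imported. Pluripotent stem cells are known to rely heavily on glycolysis, and mitochondrial activity commonly increases during differentiation.

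Counts on genes ranged from 22406153 to 32777143 per library. Pdgfra was at 25.8 to 59.7 CPM (counts scaled to a library of fixed size, with edgeR's TMM factors) in the SP and 125.4 to 275.9 CPM in the DP libraries of the reporter line. Etv2 was at 48.3 to 108.6 CPM in the reporter-positive and 18.1 to 27.7 CPM in the reporter-negative libraries, so the Etv2 negative cells were not without Etv2 transcripts. Etv2 was at 231.9 to 250.4 CPM in iETV2 SP, against 73.9 to 117.9 CPM in WT SP. Replicate 2 of SP Etv2 negative and replicate 3 of SP Etv2 positive stood apart by their share of ribosomal RNA genes, at 1.40% and 1.28%, against 0.212 to 0.432% in the other 10 reporter-line libraries.

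Several mitochondrial genes share their sequence with a nuclear copy of mitochondrial DNA. GENCODE M21 (build GRCm38) annotates 7 unprocessed pseudogenes side by side on the minus strand of chromosome 1, between positions 24611535 and 24616197. Over their aligned bases, 5 of them were identical to the mitochondrial gene they match: Gm28661 to mt-Co2, Gm10925 to mt-Atp6, Gm28437 to mt-Co3, Gm10222 to mt-Nd4l, and Gm28439 to part of mt-Nd4. The other two differed by 6 bases of 492 (Gm29216 and mt-Co1) and by 1 base of 345 (Gm28438 and mt-Nd3). The differing stretches are shown because within the aligned bases they are the only places where these copies differ from the mitochondrial gene. The sequence beyond the aligned bases was not examined. Capitals mark the bases that differ, and positions count from 1 at the gene's 5′ end. By an ungapped alignment the differing bases, from gene to copy, were T1056A, C1057T, A1059G, A1060G, C1062A and A1066T in mt-Co1, and T3C in mt-Nd3. Those of mt-Co1 lie at the start of its aligned part, which begins at position 1054. Whether they are substitutions or mark the end of the shared sequence was not tested. The 4 stretches lie, in the order shown, at chrM:6381-6412 on the plus strand, chr1:24616166-24616197 on the minus strand, chrM:9459-9490 on the plus strand and chr1:24613088-24613119 on the minus strand.
mt-Co1: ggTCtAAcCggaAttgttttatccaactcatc
Gm29216: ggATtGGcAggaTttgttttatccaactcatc
mt-Nd3: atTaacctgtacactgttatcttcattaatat
Gm28438: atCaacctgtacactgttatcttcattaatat

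The 2 sets of files treated these shared sequences differently. In the reporter line, Gm10925 averaged 6423 CPM over the 12 libraries and mt-Atp6 422 CPM, and Gm28661 averaged 4206 CPM and mt-Co2 636 CPM. In the WT and iETV2 libraries the same gene and copy were both near 0, at 0.467 CPM for mt-Atp6, 1.25 CPM for Gm10925, 0.858 CPM for mt-Co2 and 0.896 CPM for Gm28661. mt-Co3, mt-Nd3, mt-Nd4l and mt-Atp8 were near 0 there as well, at 0 to 30 counts per library. By 50-base windows taken every 10 bases, mt-Nd1, mt-Nd2, mt-Nd5, mt-Nd6 and mt-Cytb had 91.9 to 100% of their windows in no other annotated transcript. mt-Co1 had 48.7% and mt-Nd4 37.6% unique windows, and mt-Co2, mt-Co3, mt-Atp6, mt-Nd3 and mt-Nd4l had 0 to 3.33%. The windows of mt-Co1 were shared with 3 other genes, and Gm29216 held 28.7% of them. mt-Atp8 counted as unique, but no transcript is annotated at its place in the copy, and the copy's sequence there was not examined. Levels are therefore compared only within each set, and the values of the genes with under 90% unique windows are uncertain.

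**Figure D1:**
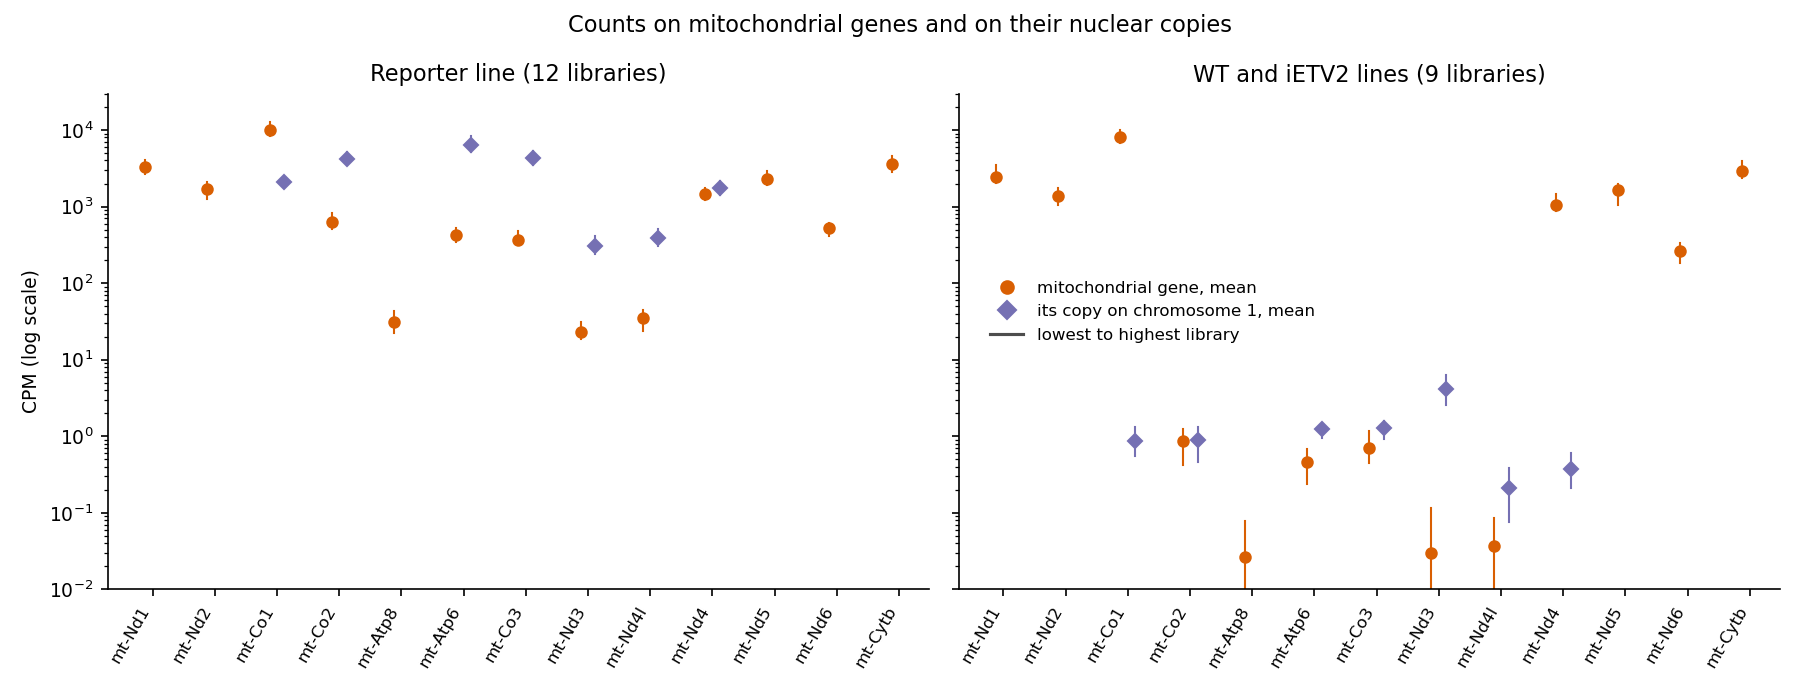
Mean CPM (log axis) of each mitochondrial-encoded subunit gene (circles) and of its copy on chromosome 1 (diamonds), with lines from the lowest to the highest library (a line that meets the axis goes down to 0), in the 12 reporter-line libraries and in the 9 WT and iETV2 libraries. In the reporter line Gm10925 averaged 6423 CPM and mt-Atp6 422 CPM, whereas in the other lines both were near 0 and mt-Co1 still averaged 8211 CPM.

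The most abundant members per length were mitochondrial-encoded. The per-length level is the count per kilobase of annotated exon, scaled to a fixed sum in each library. Over the 12 reporter-line libraries the median per-length level was 14043 for mt-Co1, 7428 for mt-Nd1, 6600 for mt-Cytb and 1361 for mt-Atp6. By these counts mt-Co1, the catalytic subunit of complex IV, was the most abundant member. Counts on the chromosome 1 copies are left out of these levels. Gm10925, the copy of mt-Atp6, averaged 6423 CPM against 422 CPM for mt-Atp6. The rank of mt-Co1 and the level of mt-Atp6 are therefore uncertain. The highest median among nuclear members of complex V in the reporter line was 801 for Atp5b, the catalytic beta subunit of ATP synthase. The highest nuclear medians within the other complexes were 358 for Cox8a in IV, 232 for Sdhd in II, 176 for Uqcr10 in III and 163 for Ndufc2 in I. The lowest medians in complexes II, III and I were 62.5 for Sdhc, 33.6 for Uqcrb and 3.37 for Ndufb4. Uqcrb and Ndufb4 had 55.1% and 63.4% of their windows unique and shared most of the rest with processed pseudogenes. In the WT and iETV2 libraries Atp5b (1215), Cox8a (649), Sdhd (364) and Ndufc2 (268) again led their complexes, and Uqcrfs1 (294) led complex III. Cox6a2 and the read-through gene Atp5o (ENSMUSG00000116933) were at 0 counts in all 21 libraries. Cox8b, Cox8c and Cox7b2, isoforms known mainly from muscle or testis, did not exceed 0.196 CPM in any library.

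SP Etv2 positive cells stood apart from the other reporter-line cells by their mitochondrial share. Mitochondrial members took 2.87, 2.99 and 2.92% of gene counts in the 3 SP Etv2 positive libraries. They took 2.36, 2.50 and 2.12% in DP Etv2 positive, 2.27, 2.48 and 2.14% in SP Etv2 negative, and 2.11, 2.29 and 2.06% in DP Etv2 negative libraries. All 3 SP Etv2 positive libraries lay above the 9 others, which overlapped among themselves. The nuclear members together took much less, at 0.678 to 0.724% in SP Etv2 positive, 0.771 to 0.875% in DP Etv2 positive, 0.684 to 0.731% in SP Etv2 negative and 0.745 to 0.779% in DP Etv2 negative libraries. In bulk samples, more cells of a type and more RNA per cell cannot be told apart.

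The ratio of mitochondrial to nuclear counts, formed within a library, does not depend on library scaling. It was 4.23, 4.13 and 4.11 in SP Etv2 positive libraries, 2.69, 3.24 and 2.75 in DP Etv2 positive, 3.32, 3.39 and 2.93 in SP Etv2 negative, and 2.71, 3.01 and 2.77 in DP Etv2 negative libraries. On the log2 scale the mean ratio was 2.06 ± 0.02 in SP Etv2 positive, 1.53 ± 0.14 in DP Etv2 positive, 1.68 ± 0.11 in SP Etv2 negative and 1.50 ± 0.08 in DP Etv2 negative cells (SD, n = 3 each). SP Etv2 positive cells exceeded SP Etv2 negative cells 1.30-fold and DP Etv2 positive cells 1.44-fold, in both cases with no overlap between the libraries. DP Etv2 positive and DP Etv2 negative cells differed by 0.03 on the log2 scale and SP Etv2 negative and DP Etv2 negative cells by 0.18, and both of these pairs overlapped. The difference between SP Etv2 positive and SP Etv2 negative cells was 0.38 on the log2 scale. It was 0.35 with only mt-Nd1, mt-Nd2, mt-Nd5, mt-Nd6 and mt-Cytb, the members of 90% or more unique windows other than mt-Atp8, and 0.42 without the 2 libraries of high ribosomal RNA share. Adding the counts on the chromosome 1 copies was another alternative, and apart from leaving out 1 library all alternatives gave 0.35 to 0.42. Since the ratio sums over the chosen members, no p-value is given for it.

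In the second set no such separation was seen. The log2 ratio was 1.20 ± 0.10 in iETV2 SP, 1.08 ± 0.32 in WT SP and 1.24 ± 0.09 in WT DP cells (SD, n = 3 each), and all 3 groups overlapped. The WT SP libraries were spread widely, with ratios of 2.59, 2.18 and 1.66, against 2.13, 2.41 and 2.37 in iETV2 SP and 2.23, 2.53 and 2.33 in WT DP. These ratios cannot be set against those of the reporter line, since 6 mitochondrial genes had at most 32 counts per library in these files.

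**Figure D2:**
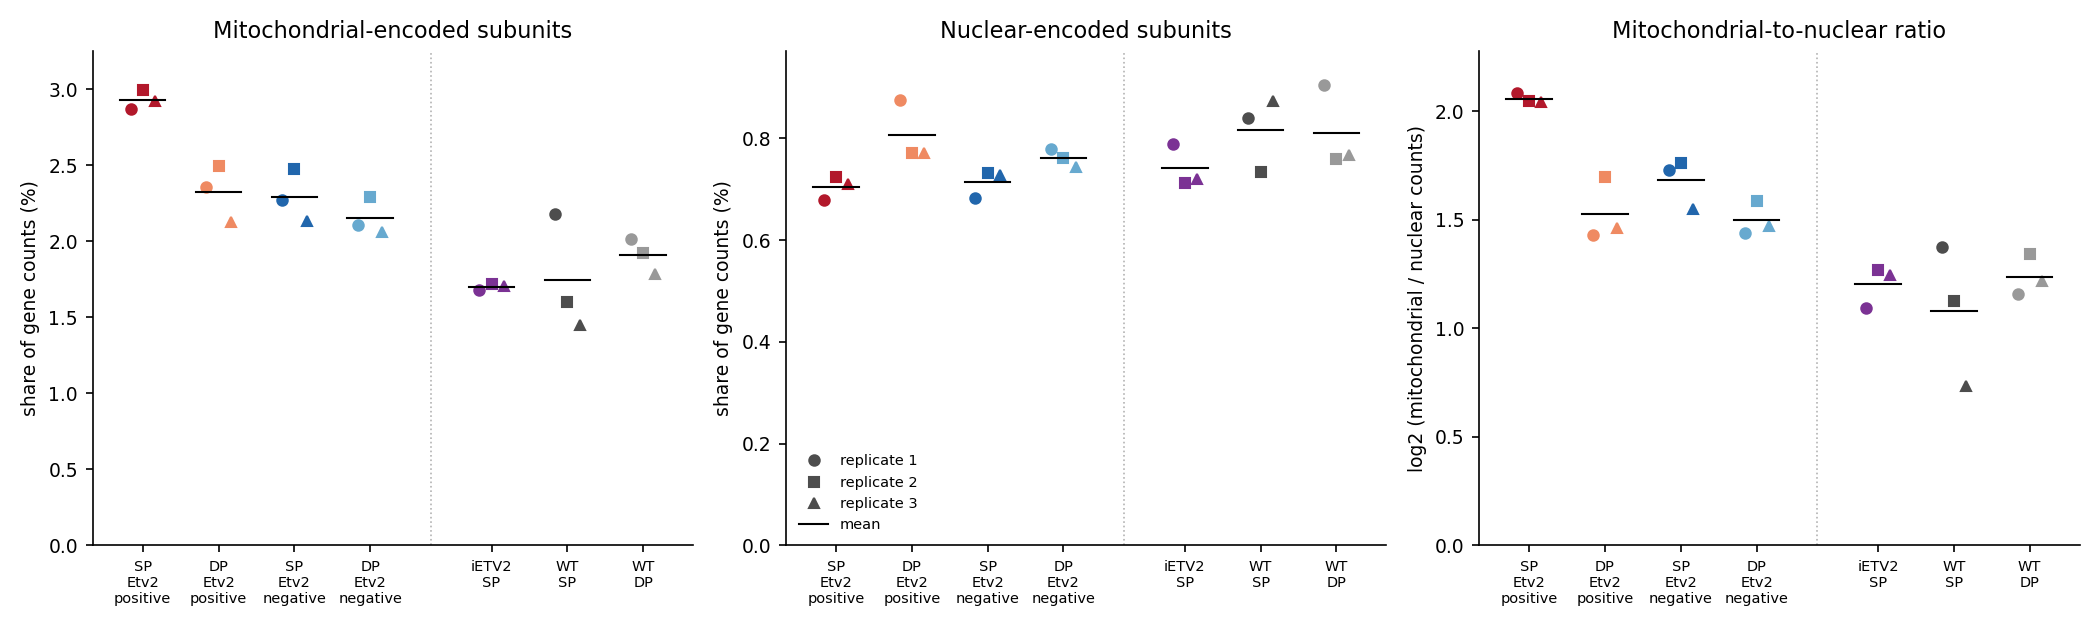
Share of gene counts on the 13 mitochondrial-encoded (left) and the 83 nuclear-encoded subunit genes (middle), in percent, and the log2 ratio of the 2 sums (right), for each library, with the group mean as a bar. A dotted line parts the reporter line from the iETV2 and WT lines, whose counts were made differently. The SP Etv2 positive libraries have the highest mitochondrial shares, 2.87 to 2.99%, and the highest log2 ratios, 2.04 to 2.08.

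The question of the reporter comparisons was what differs between cells with and without Etv2-tdTomato in 1 gate. In SP cells, 10 of the 13 mitochondrial members were called higher in Etv2 positive than in Etv2 negative cells and none lower (edgeR's quasi-likelihood test, with p-values adjusted by Benjamini and Hochberg over 17690 genes and 0.05 as the limit for a call). Over all genes tested, 25.5% were called, 13.1% higher and 12.4% lower. All 13 changes were positive, from 0.18 for mt-Nd6 to 0.49 for mt-Cytb on the log2 scale, with a median of 0.34, against -0.01 for all genes. Of the 6 members with 90% or more unique windows, mt-Nd1, mt-Nd2, mt-Nd5, mt-Cytb and mt-Atp8 were called and mt-Nd6 was not. Whether mt-Atp8 belongs among them was not tested, since its place in the copy is not annotated. The count was 6 of 13 without SP Etv2 positive replicate 2 and 9 of 13 without the 2 libraries of high ribosomal RNA share.

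mt-Cytb, the mitochondrial subunit of complex III, was at 4324, 4560 and 4618 CPM in SP Etv2 positive and 3065, 3573 and 2953 CPM in SP Etv2 negative libraries. The groups did not overlap, and the log2 fold change was 0.49 ± 0.08 (SE, edgeR adjusted p = 0.00122). mt-Co1 was at 12105, 12716 and 12587 CPM in SP Etv2 positive and 8879, 9948 and 8589 CPM in SP Etv2 negative libraries, a log2 fold change of 0.45 ± 0.07 (SE, edgeR adjusted p = 0.000604). mt-Nd1, a complex I subunit, was at 4009, 4074 and 3966 CPM in SP Etv2 positive and 2990.5, 3290.0 and 2825 CPM in SP Etv2 negative libraries (0.40 ± 0.08 on the log2 scale, edgeR adjusted p = 0.00425). mt-Nd6, the subunit encoded on the other strand of mitochondrial DNA, was at 613, 594 and 550 CPM in SP Etv2 positive and 555, 553 and 445 CPM in SP Etv2 negative libraries. These groups overlapped and the change was not called (0.18 ± 0.11, edgeR adjusted p = 0.27). In each of the 3 same-numbered pairs the SP Etv2 positive library was higher, and with the replicate block, which suits the pairing found here, the change was called (0.18, edgeR adjusted p = 0.0344). Of the copies on chromosome 1, 6 of 7 were called higher, all but Gm29216.

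The nuclear members of SP cells split. Of 78 tested, 5 were called higher and 6 lower, with a median log2 fold change of 0.00, so their share called was below that of all genes. Those called higher were Ndufa12 (0.47), Uqcrq (0.37), Cox6a1 (0.33), Cox6b1 (0.22) and Ndufa10 (0.19 on the log2 scale). Uqcrq encodes a small subunit of complex III, Cox6a1 and Cox6b1 encode the ubiquitous isoforms of structural complex IV subunits, and Ndufa12 and Ndufa10 encode accessory subunits of complex I. Those called lower were Ndufa4l2 (-2.21), Cox6b2 (-0.86), Ndufs5 (-0.68), Ndufv3 (-0.48), Atp5e (-0.29) and Atp5g3 (-0.25). Without the 2 libraries of high ribosomal RNA share 5 nuclear members were called, 2 higher and 3 lower. The counts were also at most 7 of 78 without SP Etv2 negative replicate 3, SP Etv2 positive replicate 1 or SP Etv2 positive replicate 3.

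In DP cells fewer mitochondrial members were called with the reporter. Of the 13 mitochondrial members 3 were called higher and none lower, against 30.7% of all genes called, 16.0% higher and 14.7% lower. They were mt-Cytb (0.25), which has no annotated copy on chromosome 1, and mt-Co2 (0.27) and mt-Atp6 (0.26), which have one, and the median of all 13 was 0.15. mt-Cytb was at 3443, 3873 and 3304 CPM in DP Etv2 positive and 2816, 3265 and 2847 CPM in DP Etv2 negative libraries, a change of 0.25 ± 0.08 on the log2 scale (SE, edgeR adjusted p = 0.0355). The 2 groups did not overlap. The number of mitochondrial calls rested on single libraries. It was 0 without DP Etv2 negative replicate 1, 1 without DP Etv2 negative replicate 3 and 5 without DP Etv2 positive replicate 3, and without DP Etv2 positive replicate 2 it was 1 higher and 2 lower.

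Of 78 nuclear members in DP cells, 11 were called higher and 2 lower, with a median log2 fold change of 0.11, against 0.00 for all genes. Their share called, 16.7%, was below the 30.7% of all genes, of which 16.0% were called higher and 14.7% lower. Complex III gave Uqcrq (0.34) and Uqcr11 (0.26), and all 8 of its nuclear members had a positive change. Complex V gave Atp5g1 (0.33), a gene for the c subunit of the membrane ring, Atp5mpl (0.27) and Atp5d (0.25), the delta subunit of the catalytic part. Complex I gave Ndufb6 (0.33), Ndufb10 (0.25) and Ndufs1 (0.17), complex II gave Sdhb (0.21), its iron-sulfur subunit, and complex IV gave Cox6a1 (0.32) and Cox6b1 (0.19). Ndufb6 had 67.2% of its windows unique. Atp5d was at 121, 111 and 106 CPM in DP Etv2 positive and 95.7, 93.3 and 94.95 CPM in DP Etv2 negative libraries, with no overlap (0.25 ± 0.06, edgeR adjusted p = 0.0069). Those called lower were Ndufa4l2 (-1.51) and Cox6b2 (-0.82). With only the 2 DP groups in the fit 6 nuclear members were called, and 5 or 6 without DP Etv2 positive replicate 1, DP Etv2 negative replicate 1 or DP Etv2 negative replicate 3.

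Uqcrq, Cox6a1 and Cox6b1 were called higher, and Ndufa4l2 and Cox6b2 lower, in both gates. Cox6a1 was at 69.4, 67.6 and 68.9 CPM in SP Etv2 positive and 50.2, 56.1 and 57.7 CPM in SP Etv2 negative libraries. In the DP gate it was at 77.2, 65.3 and 67.2 CPM in Etv2 positive and 58.2, 55.1 and 54.4 CPM in Etv2 negative libraries. Neither pair overlapped, and the changes were 0.33 ± 0.07 in SP and 0.32 ± 0.07 in DP cells on the log2 scale (SE, edgeR adjusted p = 0.00534 and 0.00401). Of the Cox6a1 windows 88.7% were unique and 11.3% were shared with a transcribed processed pseudogene. The Cox6b1 call was lost in 10 of 15 alternatives in DP and in 6 of 15 in SP cells, among them the replicate block in DP cells.

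**Figure D3:**
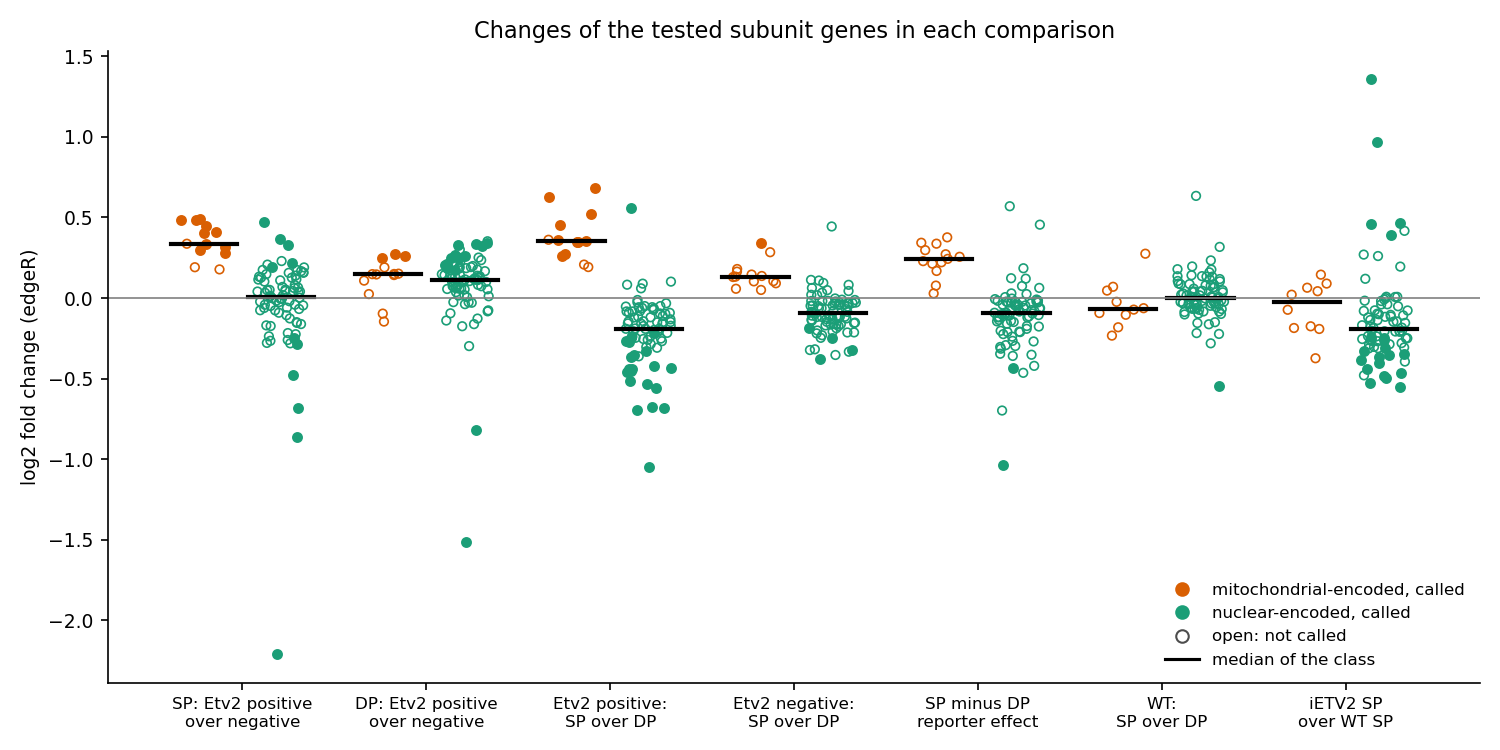
Log2 fold change (edgeR) of each tested subunit gene in the 7 comparisons, mitochondrial-encoded in orange and nuclear-encoded in green, with filled points called at an adjusted p below 0.05 and bars at the class medians. With the reporter, SP over DP has the mitochondrial median at 0.35 and the nuclear median at -0.19.

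Between the gates, the 2 classes of subunit moved in opposite directions among Etv2 positive cells. SP Etv2 positive over DP Etv2 positive gave 10 of 13 mitochondrial members called higher and none lower. Of 78 nuclear members, 1 was called higher and 20 lower. Of all genes tested 13.9% were called, 6.95% higher and 6.94% lower, so both the mitochondrial share higher and the nuclear share lower were above the background. The median log2 fold change was 0.35 for mitochondrial and -0.19 for nuclear members, against -0.01 for all genes, and 73 of 78 nuclear changes were negative. In every alternative tried, 7 to 13 mitochondrial members were called, all higher, and 14 to 30 nuclear members were called, with 1 higher in each case.

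The mitochondrial changes of SP Etv2 positive over DP Etv2 positive ran from 0.19 (mt-Nd6, not called) to 0.68 (mt-Nd4l) on the log2 scale. mt-Nd2, which is nearly unique in sequence, was at 2035, 2106 and 2080 CPM in SP Etv2 positive and 1435, 1650 and 1246 CPM in DP Etv2 positive libraries, with no overlap. Its change was 0.52 ± 0.08 (SE, edgeR adjusted p = 0.00173). mt-Nd5, mt-Nd1 and mt-Cytb rose by 0.45, 0.36 and 0.35, and with mt-Atp8 (0.63) 5 of the 6 members with 90% or more unique windows were called. Of the copies on chromosome 1, Gm28661 (0.20), Gm28437 (0.16) and Gm29216 (0.04) were not called (edgeR adjusted p = 0.0996, 0.133 and 0.746). Gm28439, Gm10222, Gm28438 and Gm10925 were called higher. Gm28661 and Gm28437, which match mt-Co2 and mt-Co3, averaged 4206 and 4267 CPM, against 636 and 369 CPM for those genes. The calls of mt-Co2 and mt-Co3 are therefore uncertain.

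The nuclear decreases in SP Etv2 positive cells relative to DP Etv2 positive cells covered all complexes, with 8 of 35 genes in complex I, 1 of 4 in II, 2 of 8 in III, 4 of 14 tested in IV and 5 of 17 tested in V. The largest among members of at least 5 CPM were Ndufb2 (-0.70), Atp5g3 (-0.68), Ndufa2 (-0.67), Cox7a2 (-0.56), Atp5e (-0.54), Cox6c (-0.52), Ndufb9 (-0.46), Uqcrh (-0.45), Atp5j (-0.44) and Ndufs4 (-0.44). Ndufb2, Ndufa2, Ndufb9 and Ndufs4 encode accessory subunits of complex I, Cox7a2 and Cox6c small subunits of complex IV, Uqcrh the hinge subunit of complex III, and Atp5e and Atp5j the epsilon and F6 subunits of ATP synthase. Each of these 10 calls held in all 15 alternatives. Of their windows, 77.3% were unique in Ndufb9, 87.0% in Cox6c and 84.2% in Atp5j. Ndufa12 was the 1 gene called higher, at 13.1, 12.02 and 12.2 CPM in SP Etv2 positive and 9.16, 7.61 and 8.55 CPM in DP Etv2 positive libraries. Its change was 0.56 ± 0.11 (SE, edgeR adjusted p = 0.00648), and 73.8% of its windows were unique because of a processed pseudogene.

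Atp5g3, another gene for the c subunit of ATP synthase, had the smallest adjusted p among nuclear members here. It was at 188, 199 and 198 CPM in SP Etv2 positive, 340, 314 and 287 CPM in DP Etv2 positive, 219, 248 and 229 CPM in SP Etv2 negative, and 284, 282 and 261 CPM in DP Etv2 negative libraries. The 3 SP Etv2 positive values lay below all 9 others. The change between SP Etv2 positive and DP Etv2 positive cells was -0.68 ± 0.07 on the log2 scale (SE, edgeR adjusted p = 0.000168). All of its 50-base windows were unique.

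Among Etv2 negative cells fewer members were called between the gates. SP Etv2 negative over DP Etv2 negative gave 1 mitochondrial member called higher, mt-Nd4l (0.34), whose sequence is shared in full with its copy. Of the nuclear members none was called higher and 4 were called lower: Cox7c (-0.38), Atp5e (-0.32), Atp5g3 (-0.25) and Sdhc (-0.19). Cox7c had 72.7% of its windows unique. Of all genes 10.9% were called, 6.10% higher and 4.84% lower, so the nuclear share was below the background. All 13 mitochondrial changes were positive (median 0.13) and 67 of 78 nuclear changes negative (median -0.09). The mt-Nd4l call was lost without any 1 of 5 libraries (each DP Etv2 negative replicate, and SP Etv2 negative replicates 1 and 2), and no nuclear call was left without DP Etv2 negative replicate 1, SP Etv2 negative replicate 1 or SP Etv2 negative replicate 3. The nuclear count was 1 without DP Etv2 negative replicate 2, and 2 without SP Etv2 negative replicate 2 or without both libraries of high ribosomal RNA share.

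The comparisons of gates and of the reporter share libraries, so an interaction term tested whether the reporter effect in SP cells differed from that in DP cells. The same term tests whether the gate effect differs between Etv2 positive and Etv2 negative cells. No mitochondrial member passed (edgeR), although 5 of 13 had an unadjusted p below 0.05 and all 13 differences were positive, with a median of 0.24. DESeq2 called 1 and the unfiltered edgeR fit 4, and edgeR called 2 without DP Etv2 positive replicate 2. With the replicate block edgeR called 3, all higher, among them mt-Nd2 (0.38, edgeR adjusted p = 0.0202). The mitochondrial calls of the interaction thus depend on whether the libraries are taken as paired. Of the nuclear members 2 passed, both lower, Ndufs5 (-1.03 ± 0.26, edgeR adjusted p = 0.0433) and Atp5g3 (-0.43 ± 0.10, edgeR adjusted p = 0.0333). Of all genes 3.97% were called, 1.52% higher and 2.45% lower. For Ndufs5 the reporter effect was 0.35, not called, in DP cells and -0.68, called, in SP cells. For Atp5g3 it was -0.25, called, in SP cells and 0.18 in DP cells, where it was not called without the replicate block (edgeR adjusted p = 0.0585) and was called with it (edgeR adjusted p = 0.0455). Ndufs5 encodes an accessory subunit of complex I and was low, at 1.25, 1.37 and 1.13 CPM in SP Etv2 positive, 2.76, 2.62 and 2.42 CPM in DP Etv2 positive, 1.72, 2.18 and 2.11 CPM in SP Etv2 negative, and 1.92, 2.50 and 1.65 CPM in DP Etv2 negative libraries. It lies under the 5 CPM set for named genes, was chosen after its values were seen, and has 70.3% of its windows unique. Nuclear calls fell to 0 or 1 without any 1 of 11 of the 12 libraries, and to 0 without the 2 libraries of high ribosomal RNA share.

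The WT gates gave 1 call among the members. WT SP over WT DP gave no mitochondrial member called of 10 tested (edgeR, none at an unadjusted p below 0.05, and none by DESeq2), with a median log2 fold change of -0.07. mt-Atp8, mt-Nd3 and mt-Nd4l had too few counts to be tested. Of those tested, mt-Co2, mt-Co3 and mt-Atp6 had at most 32, 30 and 18 counts per library. Their changes, which enter the median, are uncertain. mt-Nd1 was at 3529, 2228 and 2204 CPM in WT SP and 2870, 2628 and 2594 CPM in WT DP libraries, so that replicate 1 of WT SP lay far above its group. Without that replicate 3 mitochondrial members were called lower. Of 78 nuclear members only Cox6b2 was called, lower at -0.55 ± 0.15 (SE, edgeR adjusted p = 0.0274), against 15.8% of all genes called, 9.08% higher and 6.76% lower. That call was lost without WT DP replicate 3 or any 1 of the WT SP replicates.

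iETV2 SP cells differed from WT SP cells in nuclear members. iETV2 SP over WT SP gave no mitochondrial member called of 10 tested (edgeR, 1 at an unadjusted p below 0.05, and none by DESeq2), with a median of -0.03. These 10 again held mt-Co2, mt-Co3 and mt-Atp6, which had few counts. Without any 1 of the WT SP replicates 1 mitochondrial member was called, higher without replicate 1 and lower without replicate 2 or 3. mt-Nd1 was at 2018, 2032 and 2094 CPM in iETV2 SP and 3529, 2228 and 2204 CPM in WT SP libraries, without overlap, but the change of -0.37 ± 0.15 was not called (edgeR adjusted p = 0.0626). Of 78 nuclear members 5 were called higher and 16 lower, a smaller share than the 50.8% of all genes called, 26.4% higher and 24.4% lower. The nuclear median was -0.19, against 0.00 for all genes, and 65 of 78 nuclear changes were negative. The number called was 33 (29 lower) without WT SP replicate 2, and 9 to 11 without WT SP replicate 1, WT SP replicate 3, iETV2 SP replicate 2 or iETV2 SP replicate 3.

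The nuclear genes called lower in iETV2 SP held 7 of complex V, 3 each of complexes I and III, 2 of IV and 1 of II. The largest of at least 5 CPM were Atp5o (-0.55), Atp5k (-0.52), Uqcr10 (-0.48), Atp5g1 (-0.47), Ndufb10 (-0.44), Uqcrq (-0.40), Atp5g3 (-0.38), Sdhd (-0.36), Atp5b (-0.35) and Cox8a (-0.35). Atp5o (ENSMUSG00000022956) shares sequence with its read-through gene, with 49.4% of windows unique. It was at 7.17, 6.98 and 6.40 CPM in iETV2 SP and 10.0, 7.68 and 12.4 CPM in WT SP libraries. Atp5b was at 1334, 1221 and 1185 CPM in iETV2 SP and 1602, 1484 and 1684 CPM in WT SP libraries, with no overlap (-0.35 ± 0.08, edgeR adjusted p = 0.00444). Sdhd, a membrane anchor of complex II, was at 107, 109 and 101 CPM in iETV2 SP and 142, 124 and 141 CPM in WT SP libraries, again with no overlap (-0.36 ± 0.08, edgeR adjusted p = 0.00229). The calls of Atp5b, Sdhd and Atp5g1 held in all 14 alternatives.

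Those called higher in iETV2 SP were Cox6b2 (1.36), Cox7a1 (0.97), Ndufv3 (0.47), Atp5s (0.46) and Cox7a2l (0.39). Ndufv3 encodes an accessory subunit of complex I, Atp5s a coupling factor of ATP synthase, and Cox7a2l a factor that joins complexes III and IV into supercomplexes. Cox7a2l had 82.4% of its windows unique. Ndufv3 was at 58.9, 45.8 and 48.2 CPM in iETV2 SP and 38.1, 34.4 and 38.0 CPM in WT SP libraries, without overlap (0.47 ± 0.11, edgeR adjusted p = 0.00568). It had the opposite sign with the reporter in SP cells, at 30.2, 30.0 and 33.0 CPM in Etv2 positive and 39.8, 38.0 and 52.0 CPM in Etv2 negative libraries (-0.48 ± 0.13, edgeR adjusted p = 0.0174). Whether the 2 effects differ was not tested, since the sets were counted and fitted apart.

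Subunits with isoforms gave the largest single changes. Cox6b2 encodes the testis isoform of a complex IV subunit whose ubiquitous isoform is Cox6b1. Cox6b2 was at 5.82, 6.34 and 5.58 CPM in SP Etv2 positive and 11.7, 10.6 and 9.99 CPM in SP Etv2 negative libraries, a change of -0.86 ± 0.18 (SE, edgeR adjusted p = 0.00498). It was at 9.71, 8.06 and 5.14 CPM in DP Etv2 positive and 15.5, 12.1 and 12.8 CPM in DP Etv2 negative libraries (-0.82 ± 0.18, edgeR adjusted p = 0.00388). In the second set the order was the other way, with 23.7, 19.3 and 19.2 CPM in iETV2 SP and 7.38, 8.18 and 8.74 CPM in WT SP libraries (1.36 ± 0.14, edgeR adjusted p = 2.2e-05). None of these 3 pairs overlapped, and each of the 3 calls held in every alternative. Cox6b1 was at 103, 111 and 111 CPM in SP Etv2 positive and 88.3, 95.5 and 95.3 CPM in SP Etv2 negative libraries, and was not called in iETV2 SP (-0.25, edgeR adjusted p = 0.0662).

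Ndufa4l2, a paralog of the complex IV subunit Ndufa4 known as a hypoxia-induced gene, fell most of all members with the reporter. It was at 2.87, 2.19 and 2.98 CPM in SP Etv2 positive and 10.8, 6.83 and 19.7 CPM in SP Etv2 negative libraries (-2.21 ± 0.39, edgeR adjusted p = 0.0016). In the DP gate it was at 3.42, 2.36 and 3.78 CPM in Etv2 positive and 8.46, 5.57 and 13.4 CPM in Etv2 negative libraries (-1.51 ± 0.38, edgeR adjusted p = 0.00918). The groups did not overlap in either gate, and the negative libraries varied widely. iETV2 SP, at 13.6, 11.0 and 11.9 CPM, and WT SP, at 7.69, 8.10 and 11.6 CPM, overlapped (0.42, edgeR adjusted p = 0.104). Ndufa4 itself was not called in any comparison and lay between 95.2 and 153 CPM.

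Cox7a1, the heart and skeletal muscle isoform of a complex IV subunit, was low in all groups. It was at 3.49, 1.64 and 2.40 CPM in iETV2 SP and 1.26, 1.14 and 1.44 CPM in WT SP libraries, without overlap (0.97 ± 0.29, edgeR adjusted p = 0.0153), and the call was lost without iETV2 SP replicate 1. Its ubiquitous counterpart Cox7a2 was called lower (-0.33, edgeR adjusted p = 0.0211), at 70.4, 63.5 and 62.0 CPM in iETV2 SP and 86.4, 69.9 and 90.2 CPM in WT SP libraries, which overlapped. Cox8a was called lower in iETV2 SP (-0.35) and Cox7b was not called in any comparison. Of the 3 genes for the ATP synthase c subunit, which encode the same mature protein, Atp5g3 is described above. Atp5g1 was called higher with the reporter in DP cells (0.33) and lower in iETV2 SP (-0.47), and Atp5g2 was not called in any comparison, except with the replicate block, which called it lower with the reporter in SP cells (-0.24, edgeR adjusted p = 0.0401). Atp5g1 and Atp5g2 have 88.7% and 84.5% of windows unique. Atp5g1 was at 10.4 to 15.3 CPM in the reporter-line files and 54.9 to 91.4 CPM in the others, which were counted differently.

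**Figure D4:**
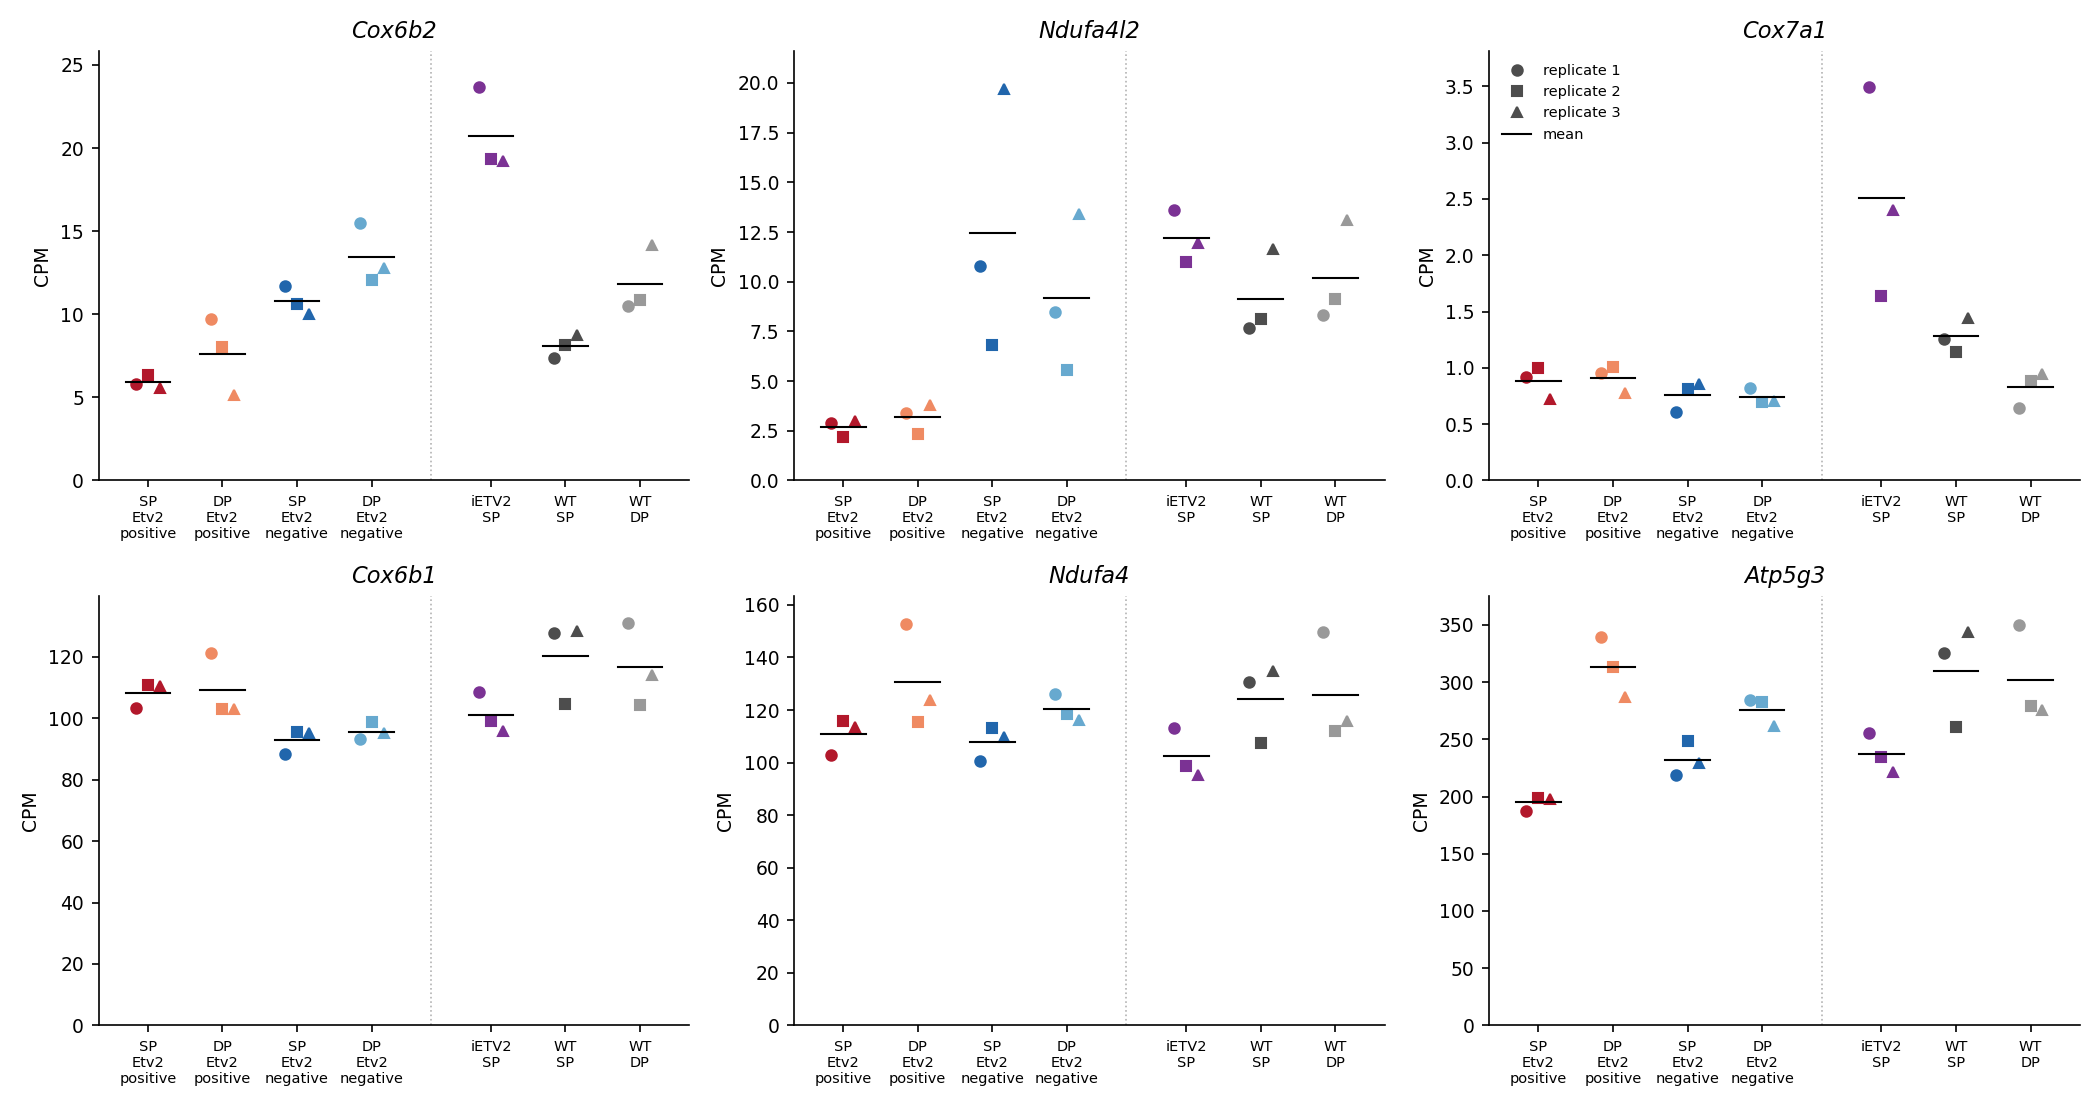
CPM of 6 nuclear-encoded subunit genes in each library, with group means as bars and a dotted line between the reporter line and the iETV2 and WT lines. Cox6b2 and Ndufa4l2 are lower in Etv2 positive than in Etv2 negative cells of both gates, Cox6b2 and Cox7a1 are higher in iETV2 SP than in WT SP, and Atp5g3 is lowest in SP Etv2 positive cells at 188 to 199 CPM.

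Since Etv2 is an ETS factor, the promoters of the nuclear members were searched for 4 sets of letters on both strands, as a description only. RefSeq windows on GRCm38.p6 of 250 bases before to 50 after a gene's start were matched for 66 of 83 nuclear members. The ETS core CCGGAAG was in 24.2% of these genes and in 9.93% of 27025 genes with a window. The NRF1 core GCGCATGC was in 15.2% and 3.05%, and the YY1 core AAGATGGCG in 10.6% and 1.64%. The shorter GGAAG, which is part of CCGGAAG, was in 72.7% and 73.9%. Of 13 nuclear members called higher with the reporter in SP or DP cells, 10 had a window and 5 of these held the ETS core (Cox6a1, Cox6b1, Ndufb6, Sdhb and Uqcr11). Of 6 called lower, 5 had a window and 1 held it (Atp5e). The 250 bases before the start are shown for 3 complex IV members called in both gates, chosen after their values were seen, and they do not stand for the others. Capitals mark the ETS and NRF1 cores. The stretches lie at chr5:115348959-115349208, chr7:30626115-30626364 and chr7:4753095-4753344, all on the minus strand. In Cox6a1 the first run of capitals is 2 overlapping NRF1 matches, 1 on each strand.
Cox6a1: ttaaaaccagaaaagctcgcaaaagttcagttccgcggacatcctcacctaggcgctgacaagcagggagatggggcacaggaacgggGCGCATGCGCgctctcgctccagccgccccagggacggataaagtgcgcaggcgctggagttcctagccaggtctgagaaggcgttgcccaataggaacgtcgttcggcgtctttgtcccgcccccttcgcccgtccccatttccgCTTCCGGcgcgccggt
Cox6b1: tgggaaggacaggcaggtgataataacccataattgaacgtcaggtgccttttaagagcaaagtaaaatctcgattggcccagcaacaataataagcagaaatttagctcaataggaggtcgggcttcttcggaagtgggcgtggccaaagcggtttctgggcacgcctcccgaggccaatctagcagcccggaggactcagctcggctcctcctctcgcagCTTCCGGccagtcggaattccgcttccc
Cox6b2: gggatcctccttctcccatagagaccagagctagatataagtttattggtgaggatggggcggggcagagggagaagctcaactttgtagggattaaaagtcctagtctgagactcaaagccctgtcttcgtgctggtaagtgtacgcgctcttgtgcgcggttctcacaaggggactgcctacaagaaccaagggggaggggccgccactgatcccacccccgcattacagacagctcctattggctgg

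Other genes of the same organelle were read beside the members. Beside their counts stand the shares of all genes called, which with the reporter were 16.0% higher and 14.7% lower in DP cells and 13.1% higher and 12.4% lower in SP cells, and in iETV2 SP 26.4% higher and 24.4% lower. Of the 6 chain subunits and cytochrome c genes outside the symbol patterns 5 were tested. Cox4i2, the isoform of the complex IV subunit 4 linked to low oxygen, was called lower with the reporter in SP (-1.23) and DP (-0.80), and Cycs, cytochrome c, was called higher in both (0.37 and 0.43). In iETV2 SP 3 of the 5 were called lower, namely Cox4i2 (-1.90), Cycs (-0.89) and Cyc1 (-0.38), the cytochrome c1 subunit of complex III. In iETV2 SP, 50 of 77 tested genes of the mitochondrial ribosome (64.9%) were called lower and none higher (median -0.36), led by Mrps6 (-0.97), Mrpl12 (-0.80) and Mrps36 (-0.79). With the reporter, 22 (28.6%) were called higher and 1 lower in DP cells and 14 (18.2%) higher and 1 lower in SP cells, with Mrpl20 (0.49 and 0.48) among the highest in both.

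Factors for transcription, processing and replication of mitochondrial RNA and DNA gave 20 of 30 tested genes (66.7%) lower and none higher in iETV2 SP (median -0.31), with Twnk (-0.71), the mitochondrial helicase, Elac2 (-0.66), which trims tRNA ends, and Tbrg4 (-0.60). In SP cells with the reporter 7 of 31 (22.6%) were called higher and 1 lower. Among those higher were Elac2 at 0.45 and Tbrg4, a factor for mitochondrial RNA stability, at 0.35. In DP cells with the reporter 5 of 31 (16.1%) were called higher, near the 16.0% of all genes, and 2 lower. Tfam, which packages mitochondrial DNA and acts in its transcription, was called lower in SP than in DP cells with (-0.23) and without (-0.25) the reporter. Tfb2m, a mitochondrial transcription factor, was called higher in SP Etv2 positive over DP Etv2 positive cells (0.45). Assembly factors gave 15 of 44 (34.1%) lower and 1 higher in iETV2 SP, with Ndufaf4 (-1.19) and Ndufaf2 (-0.69), both needed to build complex I. With the reporter 10 assembly factors were called higher and 1 lower in SP cells, and 8 higher and none lower in DP cells, where 8 of 44 is 18.2%, near the 16.0% of all genes.

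The tricarboxylic acid cycle gave 10 of 18 genes lower (55.6%, against 24.4% of all genes) and 1 higher in iETV2 SP, with Dlat (-0.56) and Suclg1 (-0.50). With the reporter it gave 8 higher (44.4%, against 13.1% of all genes) and 1 lower in SP and 6 higher (33.3%, against 16.0% of all genes) and 1 lower in DP cells, with Cs, citrate synthase, at 0.36 and 0.44. Of the carriers and channels, 3 of 10 were called higher in SP and 4 of 10 in DP cells with the reporter, and 3 of 11 were called higher and 3 lower in iETV2 SP, each 27.3% and near the shares of all genes. Slc25a4, an ADP/ATP carrier, was called higher with the reporter in DP cells (0.51) and lower in iETV2 SP (-0.39). Among regulators of mitochondrial biogenesis, Myc was called higher with the reporter in DP (0.53) and SP cells (0.37) and lower in iETV2 SP (-1.83). The regulators gave 1 higher and 3 lower of 14 in DP cells with the reporter, 2 higher and 1 lower in SP cells, and 4 in each direction (28.6%) in iETV2 SP, the SP and iETV2 shares being near those of all genes. Epas1, which encodes a hypoxia-inducible factor, was called lower with the reporter in SP cells (-1.31) and higher in iETV2 SP (1.36). In SP Etv2 positive over DP Etv2 positive cells nuclear subunits were lower, and of all genes 6.95% were called higher and 6.94% lower. Calls there were 1 higher and 3 lower (6.82%) of 44 assembly factors, and 2 higher and 4 lower (5.19%) of 77 genes of the mitochondrial ribosome. The tricarboxylic acid cycle gave 1 higher and none lower of 18 genes, and the carriers 1 higher and 2 lower of 10. The biogenesis regulators gave 6 higher (42.9%) and 1 lower of 14. Factors for mitochondrial transcription, processing and replication gave 3 higher (9.68%) and 1 lower of 31. Cox17, a copper chaperone for complex IV, was called lower there (-0.92).

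Markers of other cells moved with the same groups. The summed level of 5 endothelial markers was 31.7 to 73.0 CPM in SP Etv2 positive, 8.09 to 21.4 CPM in DP Etv2 positive, 6.06 to 13.4 CPM in SP Etv2 negative and 2.19 to 5.59 CPM in DP Etv2 negative cells, where Emcn was at 0. It was 742 to 1160 CPM in iETV2 SP, 35.5 to 65.9 CPM in WT SP and 3.61 to 6.90 CPM in WT DP. The sum of 4 primitive erythroid markers was 4.64 to 16.8 CPM in SP Etv2 positive, 0.257 to 0.620 CPM in DP Etv2 positive, 0.717 to 2.22 CPM in SP Etv2 negative and 0.0784 to 0.303 CPM in DP Etv2 negative cells, with Hba-x at 0 in all groups of the line but SP Etv2 positive. It was 1.11 to 2.65 CPM in iETV2 SP, 3.57 to 14.5 CPM in WT SP and 0.361 to 1.14 CPM in WT DP. The sum of 4 fibroblast markers, which could come from feeders, was 179 to 268 CPM in SP Etv2 positive, 355 to 529 CPM in DP Etv2 positive, 170 to 224 CPM in SP Etv2 negative and 51.7 to 154 CPM in DP Etv2 negative cells, and 5.82 to 9.32 CPM in iETV2 SP against 170 to 236 CPM in WT SP. The sum of 3 markers of undifferentiated cells was 123 to 151 CPM in iETV2 SP and 35.2 to 57.9 CPM in WT SP, and 13.8 to 55.0 CPM in the reporter line. Endoderm markers, 4 in number, summed to 48.6 to 64.5 CPM in iETV2 SP and 16.05 to 24.4 CPM in WT SP. Ttr was at 0 in iETV2 SP, and Lum, a fibroblast marker, was at 0 in all groups but DP Etv2 positive. Cardiomyocyte and neuroectoderm markers summed to at most 11.0 and 2.68 CPM in any library. The part of these cells in the subunit results was not tested.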

How the data were processed

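Total RNA of 21 libraries had been sequenced by the submitters. The deposited files hold whole-number counts for each Ensembl gene ID that were not normalized, which the authors made with featureCounts against mm10 per the submitters' processing notes. The aligner, the annotation and the strand setting are not given in the sources used here. The 9 WT and iETV2 files also hold 4 summary entries: unmapped reads (3.95 to 5.25%), multimapping reads (7.34 to 8.75%), reads outside any feature (5.04 to 7.91%) and ambiguous reads (4.3 to 4.91%). These are not of the form featureCounts writes. Neither library sizes nor tests include them. Of 55487 IDs, 55227 were named from GENCODE M21.

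Depth was 22406153 to 32777143 counts. CPM used TMM-scaled library sizes. Tests used R 4.3.3 and edgeR 4.0.16 (quasi-likelihood, TMM, filterByExpr, a term per group, two-sided), with the 12 reporter-line and the 9 other libraries fitted apart, 17690 and 16288 genes tested, and Benjamini-Hochberg adjustment over all of them. Of the members, 13 mitochondrial and 78 nuclear were tested in the reporter line and 10 and 78 in the other set. The fits were tested on simulated data. Alternatives were RLE and upper-quartile scaling, other filters, DESeq2 1.42.0, a replicate block, library sizes without mitochondrial and ribosomal RNA genes, only the compared groups, and leaving out each library. Leaving out the 2 libraries of high ribosomal RNA share, and using only mitochondrial members of 90% or more unique windows other than mt-Atp8, were chosen after seeing the data.

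Libraries with the same replicate number counted as a pair if their deviations from the group means correlated above 0.1 in each pair. The reporter comparisons met this in DP (0.262 to 0.44) and SP cells (0.184 to 0.369) and not for the gates or iETV2. The members and lists were chosen with earlier results of these data known. Named in each comparison were up to 10 called members in each direction of at least 5 CPM with the largest change, the isoform pairs, the highest and lowest member of each complex per length, and up to 3 called genes of each other list. Uniqueness, motifs and figures used Python 3.11.15, numpy 2.4.6, pandas 2.3.3 and matplotlib 3.10.9.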

Additional observations from a re-analysis of the deposited data

Results flagged for a closer look

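By the interaction test without the replicate block, 2 of 78 nuclear members (2.56%) and 0 of 13 mitochondrial members were called. The share of all genes called was 3.97%, above that of the nuclear members. With the replicate block 3 mitochondrial members were called. For Ndufs5 the reporter effect in SP minus that in DP cells was -1.03 on the log2 scale (edgeR adjusted p = 0.0433), with effects of -0.68 in SP and 0.35 in DP cells. For Atp5g3 the difference was -0.43 (edgeR adjusted p = 0.0333), with effects of -0.25 in SP and 0.18 in DP cells. Leaving out 1 library gave 0 to 2 nuclear calls, and leaving out both libraries of high ribosomal RNA share gave 0. Ndufs5 lay at 1.13 to 2.76 CPM in the reporter line and had 70.3% of its windows unique.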

How the results depend on the processing

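Counts of called members depended on single libraries more than on scaling. For the reporter in DP cells, leaving out 1 library gave 5 to 16 nuclear and 0 to 5 mitochondrial calls (3, of which 2 lower, without DP Etv2 positive replicate 2), the 2 groups alone 6 nuclear, and upper-quartile scaling 1 mitochondrial call. For the reporter in SP cells, leaving out 1 library gave 6 to 9 nuclear and 6 to 11 mitochondrial calls, and leaving out both libraries of high ribosomal RNA share 5 nuclear calls. For SP Etv2 negative over DP Etv2 negative, leaving out 1 library gave 0 to 3 nuclear and 0 to 1 mitochondrial calls, leaving out both libraries 2 and 0, and no filter 3 mitochondrial. For the interaction, leaving out 1 library gave 0 to 2 nuclear and 0 to 2 mitochondrial calls, no filter 5 and 4, leaving out both libraries 0 nuclear, and DESeq2 1 mitochondrial. WT SP over WT DP gave 0 to 1 nuclear and 0 to 3 mitochondrial, and iETV2 SP over WT SP 9 to 33 nuclear and 0 to 1 mitochondrial calls, with 1 mitochondrial call without the filter. Apart from fewer libraries in a fit, the cause was not tested. SP Etv2 positive over DP Etv2 positive (15 alternatives for each class) stayed within 1.5 times its counts. The difference in log2 ratio of mitochondrial to nuclear counts was 0.31 to 0.42 for the reporter in SP cells. It was 0.47 to 0.61 for SP over DP with the reporter. Its sign changed on leaving out 1 library in other comparisons. These were the reporter in DP cells (-0.05 to 0.08), WT SP over WT DP (-0.31 to 0.01) and iETV2 SP over WT SP (-0.05 to 0.27). Of 72 calls named by the rule, 37 held in every alternative and none changed sign. The share of nuclear members with the ETS core, 24.2%, became 72.7% with the shorter GGAAG.

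With a replicate block, mitochondrial calls were 2 for SP Etv2 negative over DP Etv2 negative, 3 for the interaction and 1 for iETV2 SP over WT SP, and nuclear calls were 40 (33 lower) for iETV2 SP over WT SP. The numbers did not pair libraries for SP Etv2 negative over DP Etv2 negative (lowest correlation 0.099) or iETV2 SP over WT SP (-0.116). For the interaction they paired libraries within each gate. In the paired reporter comparisons the block moved no count of members by over 1.5 times. Among named genes it ended the Cox6b1 call in DP cells and added Atp5g3 in DP cells and mt-Nd6 and Atp5g2 in SP cells. Genes of few counts or shared sequence limit what depth can show.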
